A study of Homo sapiens with 30 samples.

Results

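Enzalutamide moved many of the same genes of MR49F cells in opposite directions, depending on whether the medium held full or charcoal-stripped serum. For each gene, the change from vehicle to enzalutamide in full serum was subtracted from the change in stripped serum, and this difference of differences, the interaction, was computed from 12 of the 30 RNA-seq libraries of the study. The 12 were MR49F cells given vehicle in full serum (n = 3), enzalutamide in full serum (n = 3), vehicle in stripped serum (n = 3) and enzalutamide in stripped serum (n = 3). MR49F is a human prostate cancer line derived from LNCaP cells that had grown as tumours in castrated mice under long treatment with enzalutamide. It is a single derived line, so all values below belong to that line. In full serum, cells stayed in 10% fetal bovine serum and received 10 µM enzalutamide or 0.1% DMSO for 24 h. In stripped serum, cells spent 72 h in 10% charcoal-stripped serum before 24 h of 10 µM enzalutamide or of vehicle, which was 0.1% DMSO plus 0.1% ethanol. All 12 cultures had been without enzalutamide for at least 96 h before treatment. The sera were run as separate experiments with different plating densities. Each enzalutamide contrast was made within 1 experiment, but levels, the interaction and switches of direction compare the experiments. For all of these, serum and experiment cannot be told apart. The methods call the samples of a group biological replicates, each pooled from wells, and the growth protocol says that cells were plated in triplicate. Whether replicates were set up on separate days or passages is not stated, so p-values measure the spread between cultures of a single line. For comparison, 6 libraries of V16D, the castration-resistant parental line, were treated with vehicle or 10 µM enzalutamide in full serum, and 9 further MR49F libraries in stripped serum had 1 nM dihydrotestosterone (DHT), 500 nM JQ1, or 10 µM enzalutamide with 500 nM JQ1.

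Testosterone and DHT, the main androgens, raise genes of luminal secretion, lipid synthesis and growth in prostate cells and lower others. Enzalutamide is an antiandrogen drug that normally blocks this response, although in some resistant cells it is known to act as a partial agonist, switching on part of what androgen switches on. Charcoal removes steroids from serum, so full serum supplies androgen and stripped serum supplies little. JQ1 blocks BET bromodomain proteins, which bind acetylated histones and help transcription start and elongate.

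Expression was deposited as FPKM per transcript, a fragment number divided by transcript length and by library depth, and was summed here by gene symbol. Fold changes are differences of log2(FPKM + 1), which understates changes of low genes, and are given ± standard error (SE) with Benjamini-Hochberg adjusted p from limma (threshold 0.05) over all 12981 genes that reached 1 FPKM in at least 3 of the 12 libraries. The gene counts deposited beside FPKM placed 76.1% to 77.8% of reads on genes in full serum (13170504 to 21154962 reads) and only 5.13% to 7.43% in stripped serum (1059382 to 1702742 reads), so FPKM was the main measure. The kit keeps the strand, and the strand on which reads were counted is not given in the sources used here, so it was not tested whether the stripped-serum counts are the genes' own reads, and every value from counts below carries that limit. The libraries carried the labelled cell type: the 12 luminal prostate markers summed to 1755 to 2394 FPKM with no marker under 1 FPKM throughout a group, whereas 7 basal markers summed to 0.892 to 3.89, 8 fibroblast markers to 1.17 to 2.97, 8 leukocyte markers to 2.80 to 10.8 and 6 endothelial markers to 0.122 to 1.11. Of 19 neuroendocrine markers, 12 or 13 stayed under 1 FPKM in each group, and the sum was 57.6 to 60.9 FPKM in the full-serum libraries, 197 to 214 with stripped-serum vehicle and 147 to 156 with stripped-serum enzalutamide. Vehicle replicate 1 in full serum stood apart, with a median absolute log2 difference of 0.123 from the other two against 0.0441 to 0.0914 for the other 11 libraries.

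Promoter sequence was read to show androgen response element letters at a few genes that hold a match. The RefSeq windows on GRCh38.p14 span 250 bases before to 50 bases after a gene start. The androgen response element is a palindrome of AGAACA, any 3 bases and TGTTCT, and single hexamers (AGAACA, or TGTTCT on the other strand) are called half-sites. The windows below run 5′ to 3′ on the gene's own strand, with 250 bases before the start and the first 10 of the gene, and capitals mark the motif. KLK3 shows a half-site beside a canonical target that rose only in stripped serum (chr19:50854665-50854924, plus strand), FKBP5 a half-site at a target that switched from down to up (chr6:35728574-35728833, minus strand), SLC44A1 a half-site at a gene that switched the other way (chr9:105244401-105244660, plus strand), and MCM6 a pair of E2F motifs, TTTCGCGC or GCGCGAAA, at a DNA replication gene (chr2:135876434-135876693, minus strand). MCM6 was chosen after its values were seen. Every printed window holds a match, whereas those of NPPC, PGC and C1orf116, also among the largest switches, held no half-site. No gene that moved the same way in both sera is printed.
KLK3: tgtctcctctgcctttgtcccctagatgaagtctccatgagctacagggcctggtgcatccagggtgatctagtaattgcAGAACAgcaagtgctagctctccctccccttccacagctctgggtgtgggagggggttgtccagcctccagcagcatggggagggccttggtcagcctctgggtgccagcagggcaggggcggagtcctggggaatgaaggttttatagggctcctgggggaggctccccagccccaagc
FKBP5: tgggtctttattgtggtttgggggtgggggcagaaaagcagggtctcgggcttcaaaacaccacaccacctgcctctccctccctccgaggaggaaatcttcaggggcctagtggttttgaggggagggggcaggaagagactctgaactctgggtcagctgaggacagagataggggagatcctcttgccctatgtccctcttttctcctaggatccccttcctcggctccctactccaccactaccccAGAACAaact
SLC44A1: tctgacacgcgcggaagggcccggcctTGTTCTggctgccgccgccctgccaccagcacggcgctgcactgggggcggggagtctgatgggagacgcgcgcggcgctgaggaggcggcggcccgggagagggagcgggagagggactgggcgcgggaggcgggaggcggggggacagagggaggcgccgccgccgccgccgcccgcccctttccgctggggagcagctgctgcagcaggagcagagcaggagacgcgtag
MCM6: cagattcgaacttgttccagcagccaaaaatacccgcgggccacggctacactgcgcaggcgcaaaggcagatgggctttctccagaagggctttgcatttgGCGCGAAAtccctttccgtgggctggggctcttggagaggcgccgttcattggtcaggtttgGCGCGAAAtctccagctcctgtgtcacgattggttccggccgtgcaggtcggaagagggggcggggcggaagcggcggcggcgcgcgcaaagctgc

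The half-site began 170 bases before the start of KLK3, at the printed start of FKBP5 and 223 bases before that of SLC44A1. The E2F motifs of MCM6 began 148 and 86 bases before its start. FKBP5 has another start, whose window (chr6:35688866-35689165, minus strand) held no half-site. Across the table the half-site was in 5192 of 35116 windows (14.8%), and it was in 1257 of 13212 windows of tested genes (9.51%). It was in 39 of 332 windows (11.7%) of the genes that rose in stripped and fell in full serum, of which 213 of 279 matched the table, and in 44 of 511 windows (8.61%) of those that fell in stripped and rose in full serum, of which 321 of 447 matched. Genes that rose in both sera had it in 6 of 115 windows (5.22%) and genes that fell in both in 4 of 77 (5.19%). The full palindrome, which contains both hexamers, was in 1 of 35116 windows and in none of these classes. E2F motifs were in 6 of 45 windows of DNA replication genes (13.3%) and in 0.833% of windows of tested genes. A match describes letters only, and binding was not measured here.

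Of 12981 genes tested, 4425 (34.1%) had a significant interaction, 1940 (14.9%) more positive in stripped serum and 2485 (19.1%) more negative. That majority turned with the scaling, to 2353 more positive and 2062 more negative with size factors, 2211 and 2060 with quantile normalization, and 1076 and 537 with edgeR on the deposited counts. Enzalutamide changed 4414 genes (34%) in stripped serum, 2274 up (17.5%) and 2140 down (16.5%), and 1503 genes (11.6%) in full serum, 980 up (7.55%) and 523 down (4.03%). Changes passed the threshold in both sera for 875 genes, and 726 of these (83.0%) ran in opposite directions. The switched genes fell into 279 (2.15% of genes tested) that rose in stripped and fell in full serum and 447 (3.44%) that fell in stripped and rose in full serum. Which class was the larger depended on the scaling, since in the same order they held 416 and 315 genes with size factors, 323 and 265 with quantile normalization, and 198 and 85 with edgeR on counts. Only 149 genes (17.0% of the 875) moved the same way, 107 up (0.824%) and 42 down (0.324%). All 726 switched genes had a significant interaction, which follows almost by construction from called changes of opposite sign in the same fit and adds no support. It was also called for 31 of the 107 genes that rose and 8 of the 42 that fell in both. The 2 contrasts share no library. Over all tested genes, 62.1% had estimates of opposite sign, and over those with a significant interaction 87.5% did.

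Most switches were small. In the class that rose in stripped serum the median log2 fold change was 0.42 there and -0.27 in full serum, and in the class that fell in stripped serum it was -0.32 and 0.25. At least 1.5-fold in each serum was reached by 13 and 12 genes of these classes, and at least 2-fold by 3 and 0. The change was larger in stripped serum for 199 of the 279 genes (71.3%) and 283 of the 447 (63.3%), against 59.0% of all genes tested. Replicates of enzalutamide and vehicle did not overlap in either serum for 277 of the 279 and 445 of the 447. The same held for 106 of the 107 genes up in both and 42 of the 42 down in both. Being called in both sera selects for this, so it is not particular to switched genes. The full-serum calls were the less secure. Fitted on their own 6 libraries they numbered 575, which left 155 and 150 switched genes, and scaling the libraries by size factors turned their split from 980 up and 523 down to 650 and 768, or to 548 and 682 with quantile normalization. Leaving out 1 library moved the full-serum calls between 683 (without enzalutamide replicate 3 in full serum) and 2184 (without vehicle replicate 3), and the switched genes between 159 and 296 and between 216 and 554. Without vehicle replicate 1 in full serum, 284 and 371 genes switched, and in none of the alternatives run did a gene of one switched class land in the opposite one.

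**Figure D1:**
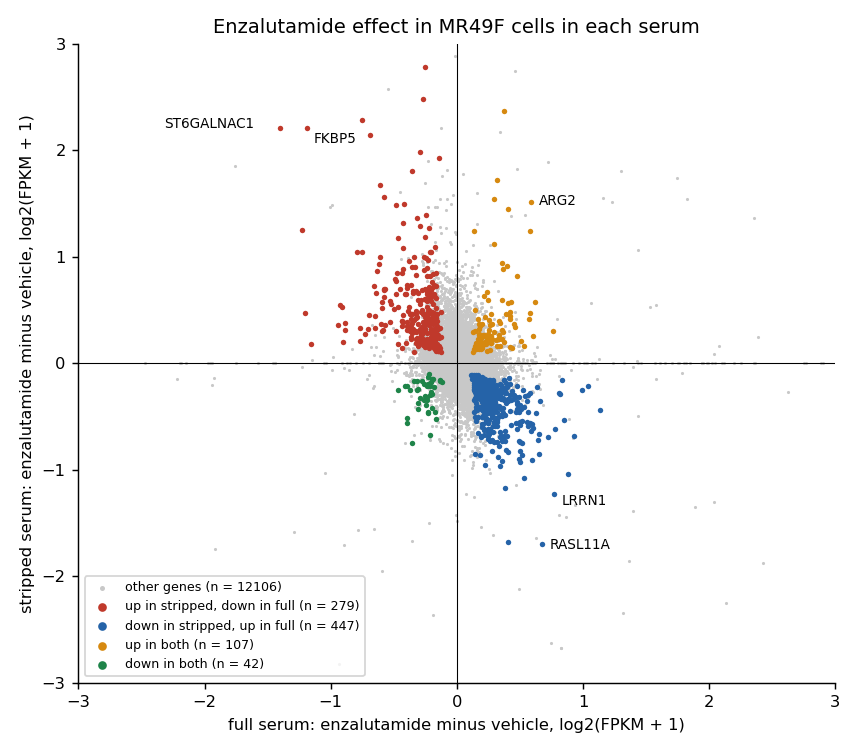
Each point is a gene, with the log2 fold change of enzalutamide against vehicle in full serum on the x axis and in stripped serum on the y axis, both on the log2(FPKM + 1) scale. The 279 genes that rose in stripped and fell in full serum lie at the upper left and the 447 that fell in stripped and rose in full serum at the lower right, while the 107 up in both, the 42 down in both and the other 12106 genes in grey fill the rest, and 40 genes lie outside the drawn range.

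Among the 279 genes that rose in stripped and fell in full serum, the 8 largest switches included androgen targets and enzymes of secretion and lipid metabolism. FKBP5, a co-chaperone of steroid receptors and an androgen target on chromosome 6 (GRCh37, 35541362 to 35696360, minus strand), was at 218, 207 and 201 FPKM with vehicle and 91.9, 91.7 and 89.7 with enzalutamide in full serum. In stripped serum it was at 9.21, 9.14 and 10.2 with vehicle and 49.0, 45.5 and 48.2 with enzalutamide. The groups did not overlap in either serum: enzalutamide took FKBP5 down from a high level in one and up from a low level in the other, and both enzalutamide groups lay between the vehicle groups. The change was -1.19 ± 0.05 in full serum (adjusted p = 3.7e-07) and 2.21 ± 0.05 in stripped serum (adjusted p = 2.7e-10), for an interaction of 3.40 ± 0.07.

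ST6GALNAC1, a sialyltransferase that caps O-linked glycans, had the largest switch by the smaller of its changes. It was at 77.2, 67.2 and 64.0 FPKM with vehicle and 25.3, 26.2 and 25.2 with enzalutamide in full serum, and at 0.328, 0.307 and 0.323 with vehicle and 5.56, 4.97 and 4.85 with enzalutamide in stripped serum. No sample with stripped-serum vehicle reached 1 FPKM, and enzalutamide brought all 3 above 4 FPKM while lowering all 3 in full serum. The changes were -1.40 ± 0.07 and 2.21 ± 0.07. ACSL3, which activates long-chain fatty acids, was at 189, 199.7 and 202 FPKM with vehicle and 116.53, 116.01 and 118 with enzalutamide in full serum, and at 27.9, 28.6 and 30.7 with vehicle and 61.1, 58.8 and 63.8 with enzalutamide in stripped serum. Its groups were also apart in both sera, with changes of -0.75 ± 0.04 and 1.05 ± 0.04. C1orf116, an androgen-regulated gene, went from a mean of 40.0 to 23.3 FPKM in full and from 5.13 to 29.0 in stripped serum, so that enzalutamide reversed which serum had the higher level. NPPC, which encodes C-type natriuretic peptide, changed by -1.23 ± 0.17 and 1.25 ± 0.17, and PGC, the precursor of pepsin C, by -0.79 ± 0.11 and 1.04 ± 0.11. ZBTB24 (-0.65 ± 0.09 and 0.73 ± 0.09) and PAK1IP1 (-0.64 ± 0.08 and 0.66 ± 0.08) completed the 8 genes of the class chosen by size. In the count-based edgeR fit the stripped-serum rises of NPPC and ZBTB24 kept their direction without passing the threshold.

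The 447 genes that fell in stripped and rose in full serum mirrored this at the level of the vehicle groups, being high in stripped serum. LRRN1, a leucine-rich repeat membrane protein on chromosome 3 (GRCh37, 3841115 to 3891518, plus strand), was at 1.61, 1.66 and 1.64 FPKM with vehicle and 3.48, 3.44 and 3.58 with enzalutamide in full serum, and at 33.4, 33.9 and 35.4 with vehicle and 13.9, 13.7 and 14.4 with enzalutamide in stripped serum. It rose by 0.77 ± 0.04 in full serum and changed by -1.23 ± 0.04 in stripped serum, with no overlap in either. CAMK2N1, an inhibitor of the calcium and calmodulin-dependent kinase CaMKII, was at 12.4, 9.62 and 9.81 FPKM with vehicle and 16.6, 17.1 and 17.4 with enzalutamide in full serum, and at 178, 184 and 168 with vehicle and 106, 106 and 109 with enzalutamide in stripped serum. Every enzalutamide sample was above vehicle in the first serum and below it in the second, for changes of 0.64 ± 0.07 and -0.72 ± 0.07. SDC4, the heparan sulfate proteoglycan syndecan 4, was at 4.19, 4.26 and 4.65 FPKM with vehicle and 9.12, 9.17 and 9.38 with enzalutamide in full serum and at 20.2, 22.3 and 21.7 with vehicle and between 12.8 and 13.1 with enzalutamide in stripped serum, and its rise in full serum (0.93 ± 0.04) was larger than its fall in stripped serum (-0.68 ± 0.04). RASL11A, a RAS-like small GTPase, had the largest fall of the named genes in stripped serum (-1.69 ± 0.08, against 0.68 ± 0.08 in full serum), and its enzalutamide mean there (1.62 FPKM) was below its vehicle mean in full serum (2.60 FPKM).

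The choline transporter SLC44A1 had nearly equal and opposite changes of 0.66 ± 0.06 in full and -0.67 ± 0.06 in stripped serum. The neuronal serpin gene SERPINI1 changed by 0.73 ± 0.05 and -0.69 ± 0.05, the Golgi glycoprotein gene FAM198B by 0.65 ± 0.06 and -0.85 ± 0.06, and IL1RN, the interleukin-1 receptor antagonist, by 0.88 ± 0.12 and -1.03 ± 0.12. For IL1RN the fall in stripped serum did not pass the threshold in the count-based edgeR fit (adjusted p = 0.15).

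**Figure D2:**
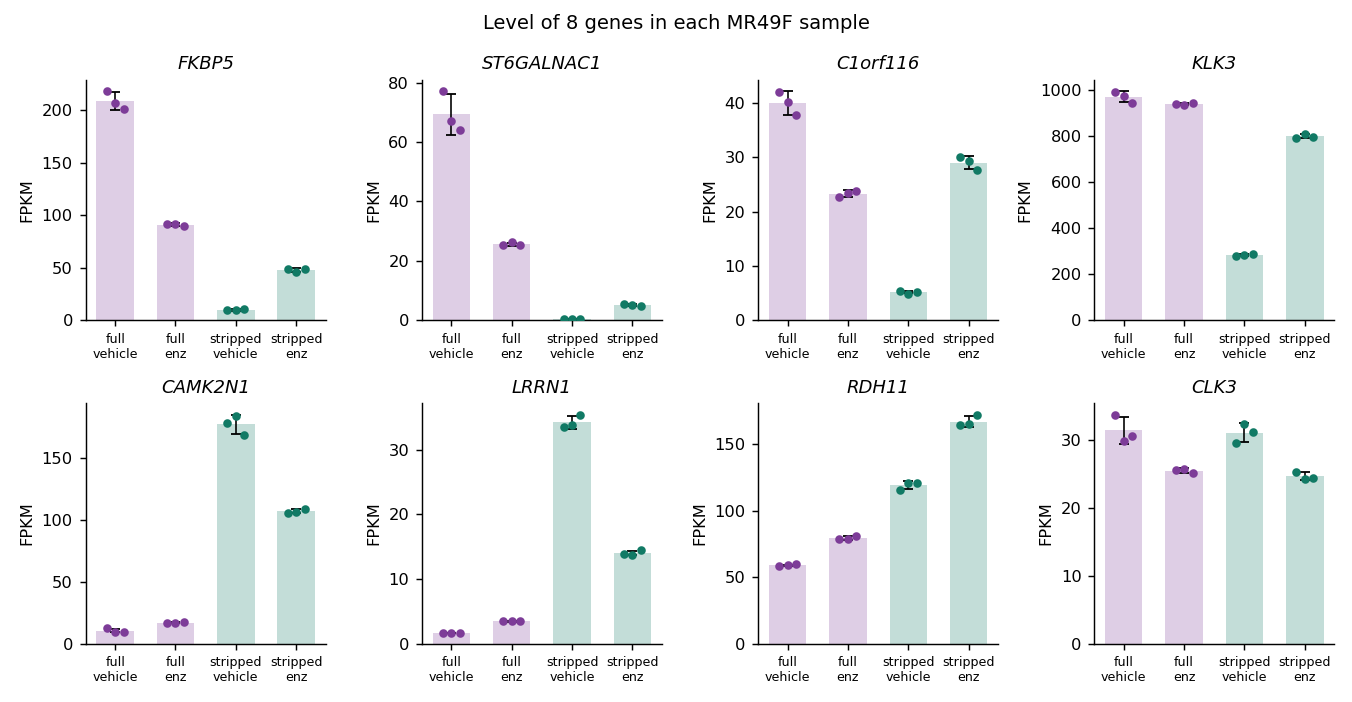
FPKM of 8 genes in the 4 MR49F groups, with bars at the mean of 3 samples, error bars of 1 SD and a point for each sample. Enzalutamide lowered FKBP5, ST6GALNAC1 and C1orf116 in full serum and raised them in stripped serum, did the opposite to CAMK2N1 and LRRN1, raised KLK3 only in stripped serum, and raised RDH11 and lowered CLK3 in both.

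The best-known androgen target genes differed in whether they switched. KLK3, which encodes prostate-specific antigen, was at 993, 974 and 945 FPKM with vehicle and 941, 937 and 946 with enzalutamide in full serum. In stripped serum it was at 277, 282 and 289 with vehicle and 794, 809.9 and 796 with enzalutamide. The full-serum groups overlapped (-0.04 ± 0.03, adjusted p = 0.42), whereas all stripped-serum samples with enzalutamide were above vehicle (1.498 ± 0.03). TMPRSS2, an androgen-driven serine protease, was at 119, 117.46 and 117.09 FPKM with vehicle and 104, 108 and 109 with enzalutamide in full serum, and at 22.4, 24.4 and 23.1 with vehicle and 95.2, 88.2 and 91.1 with enzalutamide in stripped serum. It rose in stripped serum (1.93 ± 0.04), and its fall in full serum was small (-0.14 ± 0.04, adjusted p = 0.046) and missed the threshold without vehicle replicate 1 (adjusted p = 0.090).

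MYC, the growth-promoting transcription factor, was at 130.05, 114 and 109.6 FPKM with vehicle and 114, 113 and 114 with enzalutamide in full serum, and at 64.4, 67.1 and 67.9 with vehicle and 108, 98.1 and 94.4 with enzalutamide in stripped serum. It rose in stripped serum alone (0.58 ± 0.06), while the full-serum groups overlapped (-0.05 ± 0.06, adjusted p = 0.65). The interaction was significant for KLK3, TMPRSS2 and MYC, as it was for FKBP5.

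Genes that moved the same way in both sera were few, 0.824% of genes tested up and 0.324% down. They included 0 of 19 canonical androgen targets and 1 of 98 broader androgen response genes (down in both). These counts are too small to set either list apart from all genes. RDH11, a retinol dehydrogenase of the endoplasmic reticulum on chromosome 14 (GRCh37, 68143517 to 68162510, minus strand), was at 58.8, 59.2 and 59.6 FPKM with vehicle and 78.5, 78.9 and 81.3 with enzalutamide in full serum, and at 115.94, 121 and 121 with vehicle and 164, 165 and 172 with enzalutamide in stripped serum. All enzalutamide samples were above vehicle in both, by 0.42 ± 0.03 and 0.48 ± 0.03, and the interaction was 0.06 ± 0.05 (adjusted p = 0.31). ARG2, the mitochondrial arginase, was at 21.9, 23.7 and 22.7 FPKM with vehicle and 34.8, 34.3 and 35.2 with enzalutamide in full serum and at 18.4, 20.1 and 21.6 with vehicle and 60.3, 58.9 and 58.3 with enzalutamide in stripped serum. It rose in both, by 0.59 ± 0.05 and 1.52 ± 0.05, but in the counts its stripped-serum change was 0.02 (adjusted p = 0.95), so its larger response in stripped serum rests on FPKM. DSEL, an epimerase of dermatan sulfate synthesis, rose by 0.62 ± 0.05 and 0.58 ± 0.05, CAMK2D, a subunit of CaMKII, by 0.58 ± 0.11 and 1.25 ± 0.11, and PTGFR, the prostaglandin F receptor, by 0.47 ± 0.08 and 0.82 ± 0.08. SNORA84, a small nucleolar RNA, was listed at 0 in all 6 vehicle libraries and at 7.88, 6.28 and 5.67 FPKM in full and 42.8, 20.4 and 23.8 in stripped serum with enzalutamide, and FPKM is unstable for RNAs this short, since it divides by their length.

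Of the 42 genes that fell in both, CLK3, a kinase of splicing factors, was at 33.7, 29.9 and 30.7 FPKM with vehicle and 25.6, 25.7 and 25.1 with enzalutamide in full serum, and at 29.6, 32.4 and 31.2 with vehicle and 25.3, 24.2 and 24.4 with enzalutamide in stripped serum. Its vehicle levels were alike between sera and its falls nearly equal (-0.29 ± 0.05 and -0.32 ± 0.05). The histone genes HIST1H2BC (-0.39 ± 0.07 and -0.51 ± 0.07) and HIST1H2BD (-0.31 ± 0.09 and -0.37 ± 0.09), TP53INP2, an autophagy factor (-0.35 ± 0.06 and -0.75 ± 0.06), SPECC1 (-0.26 ± 0.05 and -0.34 ± 0.05) and the zinc finger gene ZNF75D (-0.32 ± 0.06 and -0.25 ± 0.06) were the others named by size. With edgeR on counts the stripped-serum falls of CLK3 (adjusted p = 0.22), SPECC1 (adjusted p = 0.069) and ZNF75D (adjusted p = 0.088) were not called, and HIST1H2BC was called in neither serum. HIST1H2BD lost its full-serum call without vehicle replicate 1 (adjusted p = 0.12) and with quantile normalization (adjusted p = 0.065), and its H2B sequence is shared with other histone genes, which can divide reads among them.

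A further 2572 genes with a significant interaction passed the threshold in stripped serum alone, 1322 up and 1250 down, and 437 in full serum alone, 293 up and 144 down. SLC45A3, a prostate sugar transporter whose promoter is known from gene fusions, was at 78.1, 91.1 and 90.9 FPKM with vehicle and 79.6, 81.4 and 81.2 with enzalutamide in full serum, and at 10.1, 10.3 and 9.57 with vehicle and 95.1, 91.7 and 81.6 with enzalutamide in stripped serum. The full-serum groups overlapped (-0.10 ± 0.07), and the stripped-serum groups were about as far apart as the vehicle groups of the sera (3.04 ± 0.07). PMEPA1, an androgen-induced membrane protein that dampens TGF-beta signalling, also changed in stripped serum alone (2.89 ± 0.03, against -0.02 ± 0.03). In the other direction KIF5B, a heavy chain of kinesin-1, was at 53.9, 52.8 and 56.9 FPKM with vehicle and 60.7, 59.9 and 59.8 with enzalutamide in full serum and at 199, 195 and 203 with vehicle and 79.7, 81.1 and 88.4 with enzalutamide in stripped serum, a fall there (-1.25 ± 0.04) beside a change of 0.14 ± 0.04 in full serum (adjusted p = 0.063). THBD, thrombomodulin (-1.23 ± 0.04), and CXCR7, an atypical chemokine receptor (-1.03 ± 0.10), fell in stripped serum alone. SNORA51, SNORD116-24 and RNU86, all short RNAs, were listed at 0 in all libraries of 1 or more groups. RNU86 was at 0 in 9 libraries and at 1484, 1183 and 1068 FPKM with enzalutamide in full serum, and its count-based change in full serum was -0.45 (adjusted p = 0.27), so no fold is given.

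Most canonical androgen targets rose in stripped serum, and part of them fell in full serum. Of 19 tested canonical androgen targets, 18 rose in stripped serum and 12 fell in full serum, none went the other way, and 11 did both, among them TMPRSS2, FKBP5, HPGD, ACSL3, CAMKK2, ELL2, C1orf116, ABCC4, TRPM8 and CHRNA2. HPGD was not called in stripped serum with edgeR on counts (adjusted p = 0.14). The list's median log2 fold change was 1.54 in stripped and -0.34 in full serum, against -0.01 and 0.04 over all genes tested. Beside this and every list below, 17.5% of all genes rose and 16.5% fell in stripped serum. In full serum 7.55% rose and 4.03% fell. The exception in stripped serum was NDRG1, a differentiation-related gene, which fell from 21.6 to 11.5 FPKM in full serum and stood at 20.0 and 19.1 in stripped serum. Of 98 tested genes of a broader androgen response list, 60 rose and 3 fell in stripped serum, 37 fell and none rose in full serum, and 30 switched in the same sense. Of 6 tested androgen-repressed genes all 6 fell in stripped serum and 3 rose in full serum: CAMK2N1, OPRK1, the kappa opioid receptor, and FOLH1, which encodes prostate-specific membrane antigen and was at 158 FPKM with vehicle and 202 with enzalutamide in full serum, and 422 and 334 in stripped serum. Glucocorticoid receptor targets, many of which androgen also controls, split: of 13, 7 rose and 3 fell in stripped serum and 2 rose and 5 fell in full serum. PER1, FKBP5, NFKBIA and CEBPD rose in stripped and fell in full serum, while TSC22D3 and MT2A did the reverse. With edgeR on counts the stripped-serum changes of CEBPD (adjusted p = 0.62), NFKBIA (adjusted p = 0.55) and MT2A (adjusted p = 0.20) were not called, and MT2A also lost its full-serum call there (adjusted p = 0.10) and without vehicle replicate 1 (adjusted p = 0.082).

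Enzymes of the secretory pathway and of lipid synthesis contained switched genes as well. Of 33 tested cholesterol and fatty acid synthesis genes, 18 rose and 2 fell in stripped serum, and 1 rose and 8 fell in full serum. The 6 that switched included ACSL3, the elongases ELOVL7 (1.09 in stripped and -0.43 in full serum) and ELOVL5 (0.62 and -0.58) and acetyl-CoA carboxylase ACACA. Of 35 genes of endoplasmic reticulum folding and the unfolded protein response, 21 rose and 1 fell in stripped serum, and 2 rose and 7 fell in full serum. PDIA5, a disulfide isomerase (0.90 and -0.24), and SEC24D, a coat protein of export vesicles (0.72 and -0.19), were among 6 that rose in stripped and fell in full serum, and EDEM1, a lectin of protein degradation (-0.49 and 0.37), was the 1 that switched the other way.

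Of 28 glycosylation enzymes, 11 rose and 6 fell in stripped serum and 3 rose and 5 fell in full serum, so the list as a whole had no common direction (medians 0.01 and 0.04). Over all genes tested, 17.5% rose and 16.5% fell in stripped serum, and 7.55% rose and 4.03% fell in full serum. ST6GALNAC1, GCNT1, UAP1 and ST6GAL1 rose in stripped and fell in full serum, and ST3GAL1 and GALNT3, which starts O-glycans (-0.68 and 0.35), did the reverse. CSGALNACT1 was called as rising in stripped and falling in full serum too, but it reached 1 FPKM only with full-serum vehicle, and its stripped-serum change was not called with quantile normalization (adjusted p = 0.23) or edgeR (adjusted p = 0.49). ST3GAL1 lost its full-serum call with size factors (adjusted p = 0.11), quantile normalization (adjusted p = 0.056) and edgeR (adjusted p = 0.35), and ST6GAL1 its stripped-serum call with edgeR (adjusted p = 0.29). Of 13 polyamine genes, 7 rose and 2 fell in stripped serum and 2 rose and 2 fell in full serum. Spermine synthase SMS was at 305 FPKM with vehicle and 206 with enzalutamide in full serum, and 90.6 and 148 in stripped serum, and with ODC1, which makes putrescine (0.21 and -0.24), it switched.

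Most growth genes rose in stripped serum, and the number that fell in full serum depended on the scaling. Of 40 DNA replication genes, 37 rose in stripped serum and 5 fell in full serum, with none in the other directions, although the falls numbered 13 with size factors, 8 with quantile normalization and 12 with edgeR on counts. The medians were 0.72 and -0.09. CDC6, a loader of the replicative helicase, was at 36.1, 39.8 and 40.0 FPKM with vehicle and 32.5, 34.0 and 33.7 with enzalutamide in full serum, and at 4.78, 5.86 and 5.46 with vehicle and 14.8, 14.4 and 15.1 with enzalutamide in stripped serum. Its stripped-serum rise of 1.31 ± 0.06 stood beside -0.20 ± 0.06 in full serum (adjusted p = 0.055). The 5 that switched on the deposited scale were the helicase subunits MCM5 and MCM7, the flap nuclease FEN1, CLSPN and UHRF1, and MCM5 and CLSPN lost their full-serum calls without vehicle replicate 1 (adjusted p = 0.059 for each). MCM6, whose promoter with a pair of E2F motifs is printed above, was at 27.7 FPKM with vehicle and 28.6 with enzalutamide in full serum, and 11.1 and 17.1 in stripped serum, and it rose in stripped serum alone (0.59 ± 0.08, against 0.05 ± 0.08).

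Of 40 mitosis and spindle genes, 35 rose in stripped serum and 6 fell in full serum, with none in the other directions, including the proliferation marker MKI67 at 50.7 FPKM with vehicle and 38.2 with enzalutamide in full serum, and 7.71 and 13.5 in stripped serum. The full-serum falls of mitosis genes numbered 9 with size factors, 7 with quantile normalization and 10 with edgeR on counts, where 8 rose in stripped serum. Of 40 ribosome biogenesis genes 38 rose in stripped serum and 3 fell in full serum, and without vehicle replicate 1 none of the 3 full-serum calls was left. With size factors 4 ribosome biogenesis genes fell in full serum, with quantile normalization 2 and with edgeR on counts 7. The summed FPKM of these 3 lists over all 12 libraries ran from 349 to 1333, from 416 to 1472 and from 1727 to 4062. The share of dividing cells was not measured, and in bulk RNA more cells of a state and more RNA per cell cannot be told apart.

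Targets of the amino acid stress factor ATF4 and tRNA synthetases moved upward in stripped serum, and 1 of them switched. Of 31, 26 rose and 1 fell in stripped serum, and 5 rose and none fell in full serum. SLC7A11, the cystine transporter, PSPH, of serine synthesis, and SLC3A2, a partner of amino acid transporters, rose in both sera, and SLC7A11 missed the threshold in full serum with size factors (adjusted p = 0.052) and without vehicle replicate 1 (adjusted p = 0.10). DDIT4, an mTORC1 inhibitor, was the only member called in opposite directions (-0.16 and 0.37), and its stripped-serum fall was not called with edgeR (adjusted p = 0.41). PSPH missed the full-serum threshold with edgeR (adjusted p = 0.32) and without vehicle replicate 1 (adjusted p = 0.056). ATF4 was at 142, 143 and 150.4 FPKM with vehicle and 224, 217 and 222 with enzalutamide in stripped serum (0.60 ± 0.05), and in full serum its groups overlapped (0.03 ± 0.05).

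Of 21 p53 targets 4 rose and 5 fell in stripped serum, shares near the 17.5% and 16.5% of all genes, and 5 rose and none fell in full serum, where 7.55% of all genes rose, with TP53INP1, an autophagy and stress gene (-0.46 and 0.63), BTG2 and PLK3 switched and GDF15 up in both. With the other scalings 2 p53 targets fell in full serum. PLK3 lost its full-serum call with quantile normalization (adjusted p = 0.056), with edgeR (adjusted p = 0.055) and without vehicle replicate 1 (adjusted p = 0.066), and with edgeR BTG2 lost its full-serum call (adjusted p = 0.084) and TP53INP1 (adjusted p = 0.067) and GDF15 (adjusted p = 0.23) their stripped-serum calls. Of 15 drug and xenobiotic response genes 1 rose and 4 fell in stripped serum, and 4 rose and none fell in full serum. GCLC, the limiting enzyme of glutathione synthesis, was at 6.70, 6.39 and 6.76 FPKM with vehicle and 9.21, 8.91 and 8.90 with enzalutamide in full serum, and at 24.0, 22.9 and 25.4 with vehicle and 12.3, 13.4 and 14.3 with enzalutamide in stripped serum. GSTA1 and CYP1A2 were called in the same sense, while TXNRD1 rose in both. With edgeR on counts the stripped-serum change of GSTA1 was not called (adjusted p = 0.75), and that of CYP1A2 was 0.15 (adjusted p = 0.94) and was not called with quantile normalization either (adjusted p = 0.20). The list of mesenchymal transition factors and cadherins also held tight junction genes. Of its 12 tested members, 4 rose and 2 fell in stripped serum, and 5 rose and 1 fell in full serum. Among the rises were the junction genes CLDN4 (0.31 in full serum) and TJP1 (0.40 in stripped serum). OCLN, the tight junction protein occludin, fell by 0.60 in stripped serum and rose by 0.60 in full serum. Of 7 tested neuroendocrine genes, 1 rose and 3 fell in stripped serum, and 2 rose and 2 fell in full serum. DDC, the amino acid decarboxylase of catecholamine and serotonin synthesis, was at 20.0 FPKM with vehicle and 24.8 with enzalutamide in full serum. In stripped serum it was at 155 and 105. PEG10 switched in the opposite sense (0.29 and -0.28).

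Genes of protein synthesis and respiration had few calls. Of 40 cytosolic ribosomal protein genes 2 rose in stripped and 1 in full serum, and of 40 oxidative phosphorylation genes 1 rose and 1 fell in stripped and 1 rose in full serum. Of 16 interferon-stimulated genes 5 rose and 2 fell in stripped and 2 rose in full serum, both being up in both. Of 23 glycolysis genes 11 rose and 1 fell in stripped serum, where 17.5% of all genes rose and 16.5% fell, and 1 rose and 1 fell in full serum. Of 15 AP-1 and immediate early genes 4 rose and 4 fell in stripped and 2 rose and 2 fell in full serum. Of the 12 luminal markers 5 rose and 5 fell in stripped and 3 rose and 3 fell in full serum. The directions of the androgen, lipid, folding and growth lists held with size factors, quantile normalization and edgeR on counts, while the full-serum medians of the glycosylation and polyamine lists lay near 0 and changed sign.

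**Figure D3:**
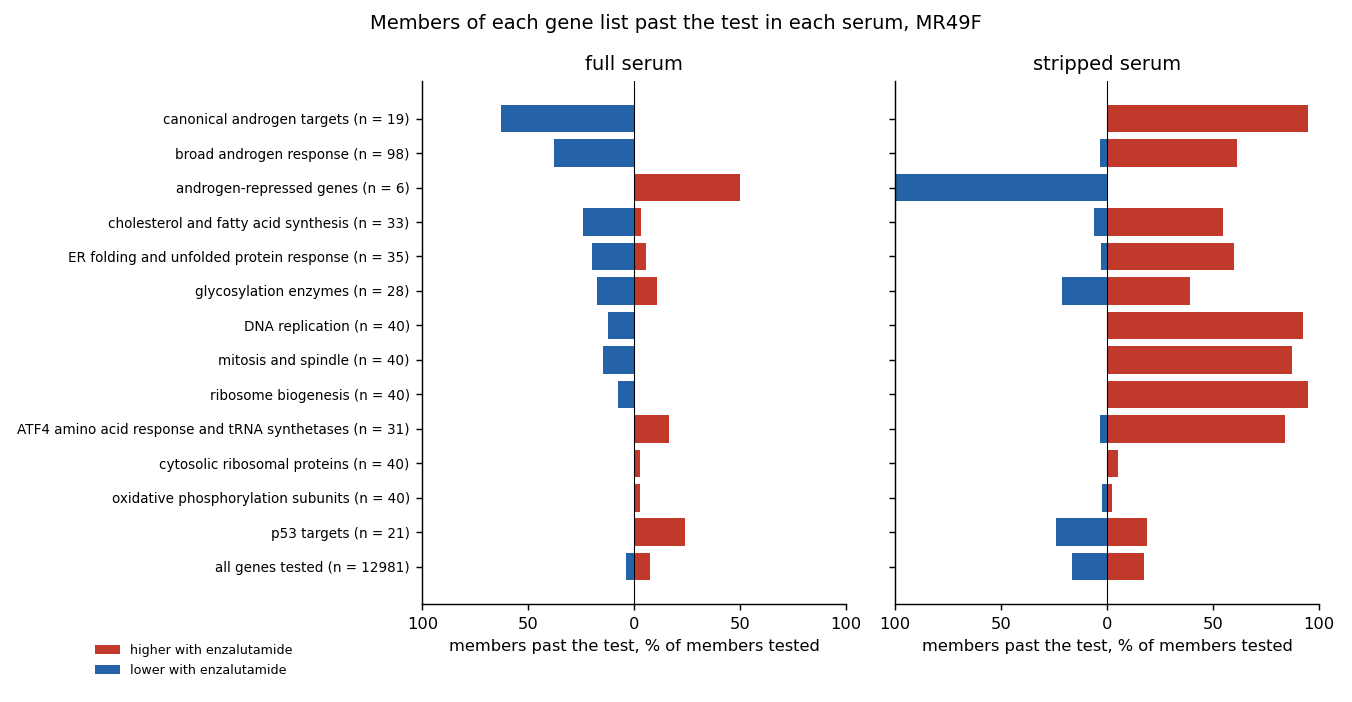
Percent of the tested members of each gene list that rose (right) or fell (left) with enzalutamide in stripped and in full serum, with all genes tested as the bottom of the 14 rows. Canonical androgen targets extend to the right in stripped serum and to the left in full serum. Growth genes extend to the right in stripped serum. In full serum only 5 of 40 DNA replication, 6 of 40 mitosis and 3 of 40 ribosome biogenesis genes fell. Cytosolic ribosomal protein and oxidative phosphorylation genes stay near 0 in both.

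Levels showed how each class sat between the sera. Vehicle means were higher in full than in stripped serum for 275 of the 279 genes that rose in stripped serum (98.6%) and for 7 of the 447 that fell there. In 262 (93.9%) and 417 (93.3%) of these genes both enzalutamide means lay between the vehicle means, against 47.0% of all genes tested. The median absolute gap between sera on the log2(mean FPKM + 1) scale went from 1.18 with vehicle to 0.44 with enzalutamide in the first class and from 0.94 to 0.39 in the second, and from 0.39 to 0.26 over all genes. In the classes that moved together the gap was 0.36 and 0.35 (up in both) and 0.25 and 0.19 (down in both). The vehicle libraries define both the classes and the gaps, so these are descriptions without a test.

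**Figure D4:**
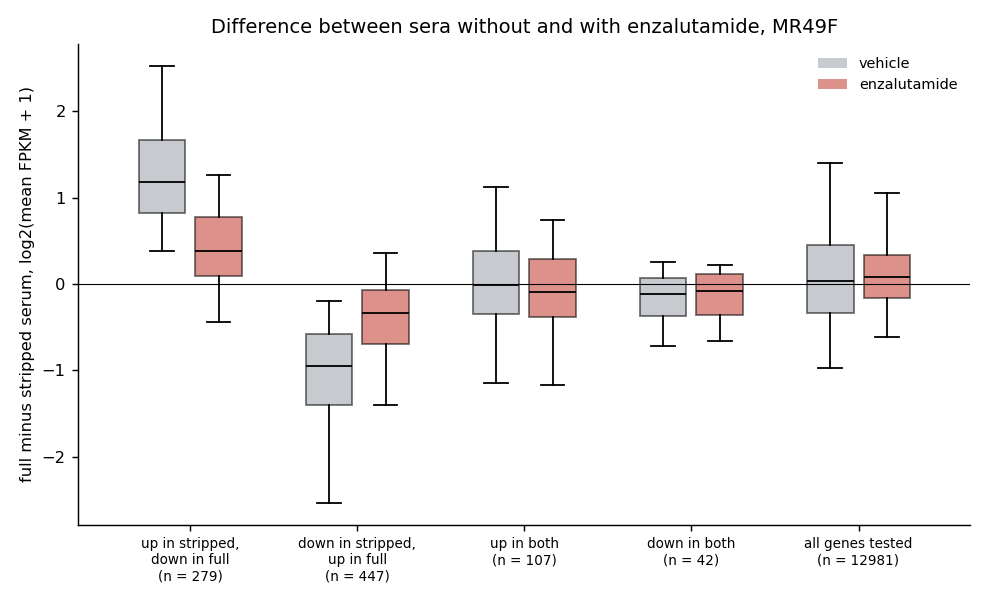
Full-serum minus stripped-serum level, as the difference of log2(mean FPKM + 1), with vehicle and with enzalutamide for each class, where boxes span the quartiles and whiskers the 5th to 95th percentiles of genes. The median absolute gap shrank from 1.18 to 0.44 in the class up in stripped and down in full serum and from 0.94 to 0.39 in the opposite class, and was 0.36 and 0.35 in the genes up in both.

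V16D gave the classes a direction in separate libraries. Enzalutamide changed 30.4% of 12497 genes tested in V16D in full serum (17.7% up, 12.7% down). Of the 279 genes up in stripped and down in full serum in MR49F, 274 were tested in V16D, 237 fell (86.5%) and 1 rose. Of the 447 in the opposite class 410 were tested, 327 rose (79.8%) and 2 fell. FKBP5 was at 164, 157 and 162 FPKM with vehicle and 39.6, 39.9 and 37.04 with enzalutamide in V16D, and LRRN1 at 6.70, 6.51 and 6.07 with vehicle and 25.1, 26.0 and 25.01 with enzalutamide, both in the direction of MR49F in full serum and with no overlap. KLK3, which overlapped between groups in MR49F in full serum, was at 500.1, 509 and 518 FPKM with vehicle and 133, 134 and 129.8 with enzalutamide in V16D (log2 fold change -1.93, adjusted p = 8.1e-08). Of the genes that rose in both sera of MR49F, 99 were tested in V16D, 40 rose and 11 fell, and of 42 that fell in both, 21 fell and 3 rose. In V16D 26 of 40 DNA replication genes fell and 1 rose, and 28 of 35 folding genes fell and none rose.

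DHT and enzalutamide shared their vehicle libraries in stripped serum, so their changes are set side by side without a comparison. DHT raised 28.9% and lowered 43.2% of the genes tested in its own fit (adjusted p of at most 0.05). Under 1 nM DHT, FKBP5 changed by 5.29, ST6GALNAC1 by 5.06, KLK3 by 2.15, LRRN1 by -4.04 and CAMK2N1 by -3.30 on the log2 scale, and under 10 µM enzalutamide by 2.21, 2.21, 1.498, -1.23 and -0.72. Of the genes that rose with enzalutamide in both sera, under DHT RDH11 changed by -0.12, DSEL by -1.07 and ARG2 by 0.54.

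With JQ1 present in stripped serum, enzalutamide changed 15.9% of 11747 genes (6.38% up, 9.49% down), measured against JQ1 alone in libraries separate from the 12. Of the class up in stripped and down in full serum 240 were tested, 92 rose and 9 fell, and of the opposite class 428 were tested, 7 rose and 147 fell. Of 16 tested canonical androgen targets 14 rose and none fell, while of 34 DNA replication genes 1 rose and 1 fell, of 40 ribosome biogenesis genes 2 rose and 2 fell, and of 40 mitosis and spindle genes 13 rose and none fell. KLK3 was at 6.97, 7.61 and 6.45 FPKM with JQ1 and 44.9, 46.6 and 46.1 with JQ1 and enzalutamide, a change of 2.55 (adjusted p = 2.7e-08) at levels far below those without JQ1. CDC6 was at 3.17, 3.03 and 2.45 FPKM with JQ1 and 3.33, 3.18 and 2.87 with both, and these groups overlapped (log2 fold change 0.09, adjusted p = 0.48). FKBP5 rose by 1.14 and MYC, which had risen without JQ1, changed by -0.06 (adjusted p = 0.43). Of 96 genes that rose in both sera 45 rose and 1 fell, and of 40 that fell in both 11 fell and none rose. The 1865 genes changed under JQ1 became 897 without JQ1 replicate 2. Whether these responses differ from those without JQ1 was not tested.

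**Figure D5:**
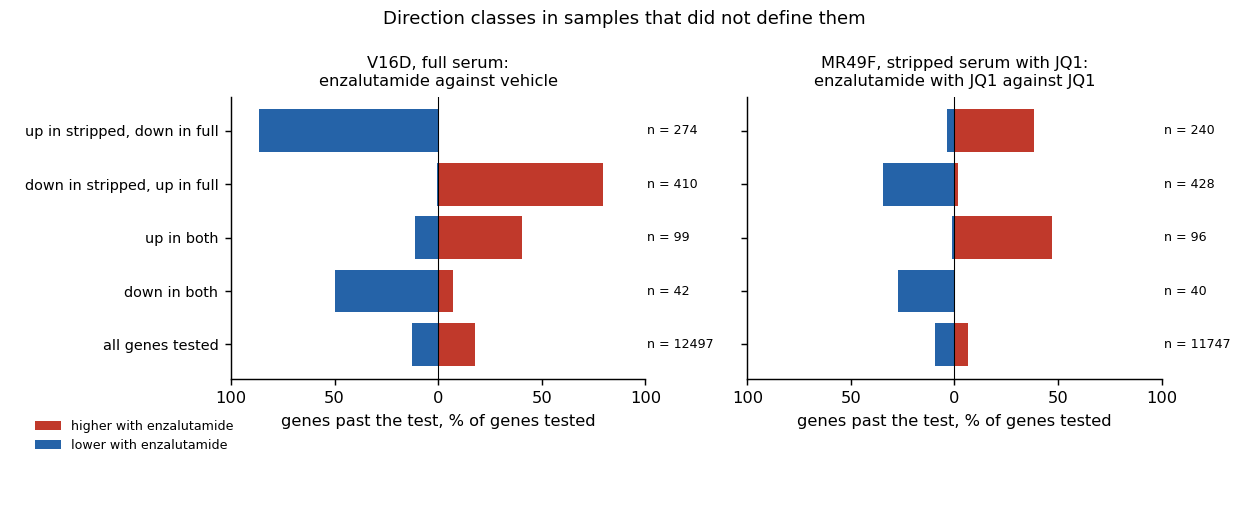
Percent of each MR49F class that rose or fell with enzalutamide in V16D in full serum and in MR49F with JQ1 in stripped serum. In V16D 86.5% of the genes up in stripped and down in full serum fell and 79.8% of the opposite class rose, while with JQ1 38.3% of the first class rose and 34.3% of the second fell.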

How the data were processed

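RNA-seq libraries were poly(A)-selected, strand-specific and read from 1 end. The authors aligned reads to hg19 with TopHat2 2.0.9, computed FPKM per transcript with Cufflinks 2.1.1 and counted reads per gene with HTSeq, whose strand setting is not given in the sources used here. The deposited FPKM values of 43497 transcripts were summed here to 23616 gene symbols. The deposited counts served only as an alternative, because they placed 5.13% to 7.43% of stripped-serum reads on genes. A group-means model of the 12 libraries was fitted to log2(FPKM + 1) with limma 3.58.1 (trend) in R 4.3.3, keeping a gene where 3 or more libraries reached 1 FPKM and calling an adjusted p of at most 0.05. The contrasts were enzalutamide against vehicle in each serum and their difference. V16D, DHT and JQ1 libraries were fitted separately in the same way. The FPKM files give no counting error for a value, so the spread of 3 replicates sets the precision. The fits across genes were also run on simulated data with the same spread in every group and, for FPKM, no level difference between sera. In the real libraries the median SD was 0.0916 with vehicle and 0.0452 with enzalutamide in full serum. The simulation therefore cannot show how the fits handle unequal spread.

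The genes named are KLK3, TMPRSS2, FKBP5 and MYC, the 8 or 6 genes per class with the largest smaller change (no overlap in either serum, mean of at least 5 FPKM in 1 group), 4 per direction called in 1 serum alone, and up to 3 per list with the largest significant interaction. Members of lists that were called in both sera, NDRG1, ATF4 list members and MCM6 were also named, after their values were seen. The lists were written from general knowledge, and lists, comparison and members were chosen with earlier results of these data known. 4 list genes (SC4MOL, TIGAR, SUSD6 and PKM2) were not matched by symbol. Promoter windows came from RefSeq on GRCh38.p14 and gene positions from the GRCh37 annotation. Alternatives covered the pseudocount, the filter, the scaling, the fit, edgeR 4.0.16 and DESeq2 1.42.0 on counts, a replicate block and leaving out each library. The 3 libraries with DHT and JQ1 together were not used here. Some genes that the rule also names are not reported here.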

Additional observations from a re-analysis of the deposited data

Results flagged for a closer look

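The serum-by-enzalutamide interaction stood out because the effect of enzalutamide differed between full and stripped serum by a test of the difference itself (limma, adjusted p of at most 0.05, all 12 libraries), for 4425 of 12981 genes. Among the 4 genes named in every comparison the interaction was 3.40 for FKBP5, 2.07 for TMPRSS2, 1.54 for KLK3 and 0.63 for MYC on the log2(FPKM + 1) scale. Positive values mean a more positive response in stripped serum, and for all 4 genes every stripped-serum enzalutamide sample lay on the same side of every stripped-serum vehicle sample. Depth on genes, plating density and the ethanol in the vehicle also differed between the sera, and their part in the interaction cannot be told apart from that of the serum.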

How the results depend on the processing

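The direction of the androgen response medians held in every alternative run, and no gene of a switched class was called in the opposite class in any of them. With edgeR on counts, only 141 of the 279 and 79 of the 447 switched genes kept their class. The number of interaction genes (4425) went to 1613 with edgeR on counts, 1545 with DESeq2 size factors in edgeR, 1859 without its filter, 1722 with DESeq2 and 937 with at least 1.5-fold, and in the same order the stripped serum genes (4414) went to 1158, 1133, 1366, 1229 and 465. The full serum genes (1503) went to 575 in separate fits, 389 in a two-group test per gene after a variance filter, 832 with a replicate block, 2584 with all 24 MR49F libraries in the fit and 96 with at least 1.5-fold. Switched genes (279 up and 447 down in stripped serum) went to 155 and 150 in separate fits, 100 and 102 in the two-group test, 172 and 243 with the replicate block, 428 and 724 with 24 libraries, and 13 and 12 with at least 1.5-fold, and those down in stripped serum to 265 with quantile normalization, 85, 88 and 97 in the edgeR fits in the order above and 104 with DESeq2. Same direction genes (107 up and 42 down) went to 38 and 16, 25 and 7, 61 and 26 in separate fits, two-group test and block, to 22 and 7, 19 and 8, 34 and 11 in the edgeR fits, 28 and 19 with DESeq2, and 2 and 0 with at least 1.5-fold, and the genes up in both to 71 with quantile normalization and 179 with 24 libraries. V16D went from 3799 to 362 with at least 1.5-fold. DHT went from 8787 to 4122, 4117 and 4523 in the edgeR fits, 2680 with DESeq2 and 2578 with at least 1.5-fold, and enzalutamide under JQ1 from 1865 to 482, 482 and 416, 181 and 109 in the same order and to 952 in the two-group test. The androgen response median interaction (0.61) was 0.70 with a pseudocount of 0.1, 0.66 with size factors, 0.67 with quantile normalization, 0.83, 0.81 and 0.83 in the edgeR fits and 0.81 with DESeq2. Its full-serum median (-0.14) was -0.19 with quantile normalization, -0.22 in the two-group test, -0.22, -0.22 and -0.21 in the edgeR fits and -0.22 with DESeq2, and its stripped-serum median (0.32) was 0.46, 0.43, 0.41, 0.44 and 0.41 in the two-group test, the edgeR fits and DESeq2. Leaving out 1 library in turn gave 3591 to 4748 interaction genes, 683 to 2184 full serum genes, 3490 to 5272 stripped serum genes, 159 to 296 and 216 to 554 switched genes, 46 to 156 and 25 to 57 same direction genes, 2813 to 3187 genes in V16D, 7832 to 8422 with DHT and 897 (without JQ1 replicate 2) to 1648 with JQ1, and medians of 0.59 to 0.67, -0.16 to -0.12 and 0.30 to 0.33 for the androgen response. The side comparisons without each library, and fits without short RNA genes (296 and 466 switched) or without genes at 0 in any library (293 and 469), were chosen after seeing the data. The cause of these shifts was not tested. Counts for the interactions of named genes (39 in the main fit) are over pairs of a gene and an alternative. Of these pairs, 981 kept their direction and call, 18 lost and 1 gained a call and 28 changed sign. ARG2 was -0.55, -0.56 and -0.54 in the edgeR fits and -0.56 with DESeq2. RNU86 was 0.75, 0.73, 0.76 and 0.75, ZNF75D -0.035, -0.054, -0.029 and -0.055, and CLK3 0.099, 0.080, 0.10 and 0.080 in the same fits. CLK3 was also 0.021 with size factors and ran from -0.082 to 0.0012 (without full-serum vehicle replicate 2) on leaving out 1 library. DSEL was 0.011 with size factors, 0.047 with quantile normalization, 0.052, 0.033 and 0.058 in the edgeR fits, 0.033 with DESeq2, and from -0.083 to 0.0059 on leaving out 1 library, being above 0 (0.0033 and 0.0059) without full-serum enzalutamide replicate 3 or stripped-serum enzalutamide replicate 1. HIST1H2BD was 0.024 and 0.011 without full-serum vehicle replicate 2 and stripped-serum enzalutamide replicate 1. Among the 12 libraries, samples with the same replicate number did not deviate together (mean r -0.080 in full and -0.048 in stripped serum). In the stripped-serum libraries with JQ1, mean r was 0.094 for the same number and -0.047 for different numbers. Correlations over 3 samples per group cannot exclude that the numbers pair the samples, and the replicate block was run as an alternative. The stripped-serum counts hold only 1059382 to 1702742 reads on genes, counted with a strand setting that is not given, and whether depth or strand moves the values from counts was not tested.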
